A study of Mus musculus with 12 samples.

Results

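The mouse genes described here are the galectins Lgals1, Lgals3 and Lgals7, the annexins Anxa1 and Anxa2, the S100 genes S100a4, S100a6, S100a10 and S100a11, and the intermediate filament gene Vim. These 10 genes are taken by symbol from 23271 named features. All 10 had an entry of their own in each of the 12 libraries, and all 10 passed the filter on low values that 11115 features passed. They were selected on their FPKM levels in all 4 groups of these same libraries, so those levels and differences are given as descriptions, with no test of any of them.

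RNA from CD4 T cells of C57BL/6 mouse spleen was sequenced as poly(A)-selected libraries. Cells carrying both CXCR5 and PD-1, surface proteins of T follicular helper cells, form the TFH groups, and cells lacking both form the non-TFH groups. Mice labelled cKO carried CD4-cre with Ets1 flox/flox, in which Cre under a Cd4 promoter deletes the floxed part of Ets1 in T cells. Mice labelled WT carried the same floxed alleles without Cre, so all groups share the floxed alleles. There were 3 libraries each of cKO TFH, WT TFH, cKO non-TFH and WT non-TFH cells, and the labels do not say whether they came from separate mice. The p-values given for other genes therefore measure the spread between libraries, which may be technical.

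Galectins bind the galactose-containing sugars of glycoproteins inside and outside cells, and in T cells galectin-1 and galectin-3 are known for altering receptor clustering, signalling and survival. Annexins bind membrane phospholipids when calcium rises. S100 proteins are small calcium-binding proteins that attach to partner proteins, among them annexins: S100A10 forms a complex with annexin A2, and S100A11 binds annexin A1. Vimentin is the main intermediate filament protein of lymphocytes. In CD4 T cells several of these genes are known as part of the program of activated and memory cells, in which they are higher than in naive cells.

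Most of the 10 genes were higher in cKO than in WT cells and higher in TFH than in non-TFH cells. Levels are FPKM (fragments per kilobase of transcript, relative to library depth), scaled between libraries, and since FPKM is per length it can be set side by side between genes. The summed level of the 10 genes was 4825 to 5667 scaled FPKM in cKO TFH libraries, against 2466 to 2720 in WT TFH libraries. In cKO non-TFH libraries the sum was 1247 to 1400.0, against 422 to 472 in WT non-TFH libraries. The genes did not share a single pattern. Lgals1, Lgals3, Anxa2, S100a4 and S100a6 had a larger genotype difference in non-TFH than in TFH cells. S100a10 and S100a11 had nearly the same modest difference in both cell types. Lgals7 was near 0 in WT cells of both types, and Anxa1 and Vim did not follow the others.

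**Figure D1:**
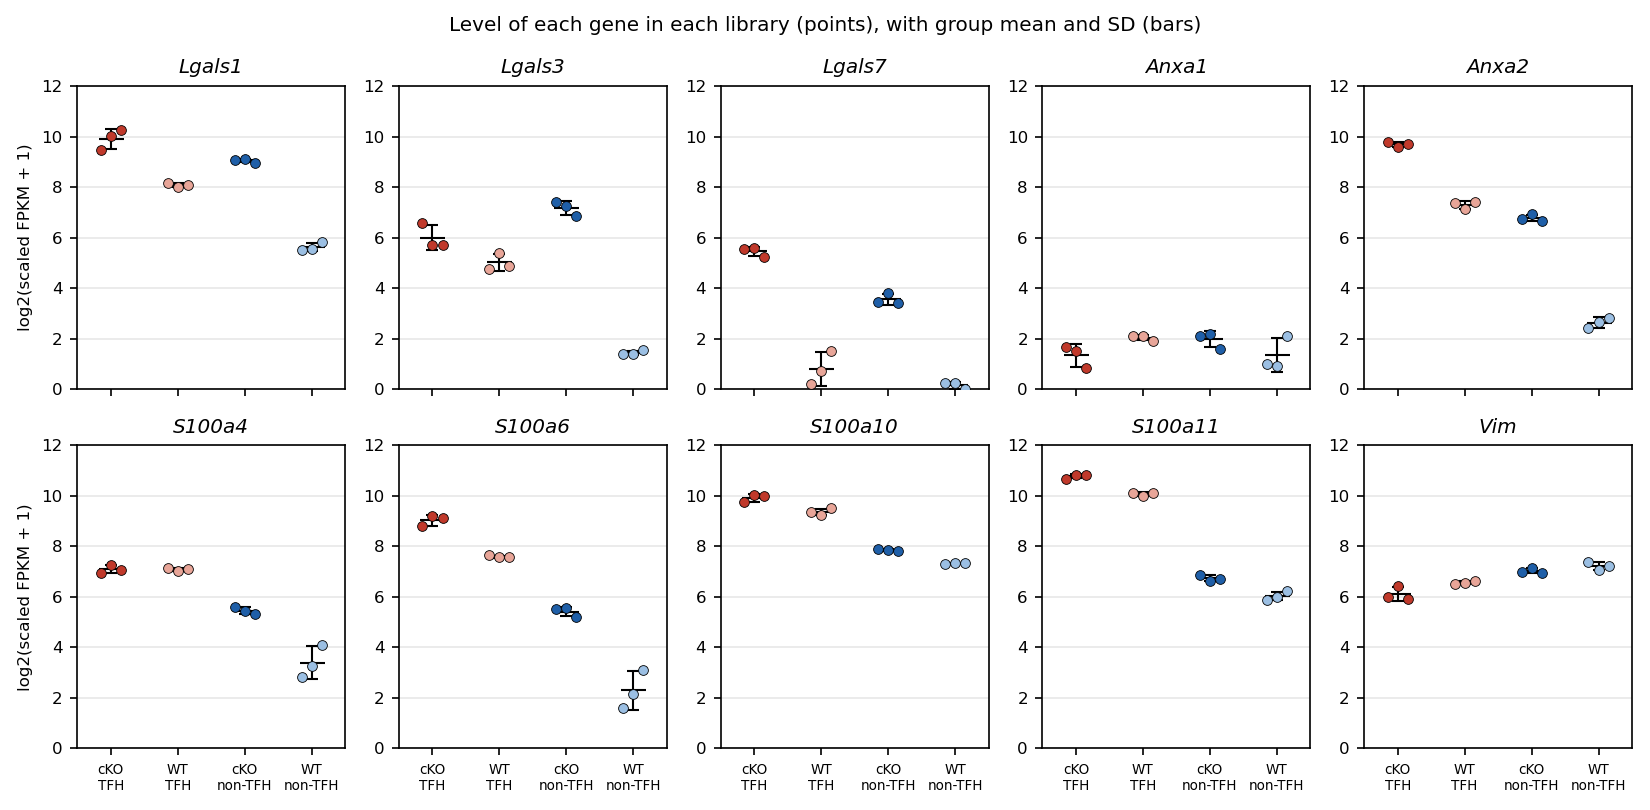
Level of each of the 10 genes as log2(scaled FPKM + 1) on the y axis, with 1 point per library and bars for the group mean and SD over 3 libraries, in cKO TFH, WT TFH, cKO non-TFH and WT non-TFH cells. Anxa2 and S100a6 step down through the 4 groups without overlap, Lgals3 is highest in cKO non-TFH cells, and Vim is highest in WT non-TFH cells.

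Sequence before the RefSeq gene start is shown for Lgals7, Lgals3, Anxa2 and S100a6, which had large genotype differences in at least 1 cell type. It is also shown for S100a4, the near neighbour of S100a6. Ets1 is a transcription factor of the ETS family, whose members bind DNA at a GGAA core. Each stretch below comes from RefSeq's promoter window (250 bases before to 50 after the gene start, build GRCm38.p6) and stops before the first exon annotated inside that window by GENCODE M21. GENCODE M21 starts Lgals3 at base 47367751 and Lgals7 at base 28863853, so the stretches of these genes lie inside the annotated genes. Capitals mark GGAA on either strand (GGAA or TTCC).
Lgals7, chr7:28864136-28864228, + strand: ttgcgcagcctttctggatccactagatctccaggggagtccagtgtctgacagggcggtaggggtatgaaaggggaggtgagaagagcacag
Lgals3, chr14:47373610-47373812, + strand: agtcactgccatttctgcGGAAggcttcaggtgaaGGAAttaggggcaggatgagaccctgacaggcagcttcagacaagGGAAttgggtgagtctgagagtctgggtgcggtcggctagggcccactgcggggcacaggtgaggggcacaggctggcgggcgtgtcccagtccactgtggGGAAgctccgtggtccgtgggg
Anxa2, chr9:69453433-69453619, + strand: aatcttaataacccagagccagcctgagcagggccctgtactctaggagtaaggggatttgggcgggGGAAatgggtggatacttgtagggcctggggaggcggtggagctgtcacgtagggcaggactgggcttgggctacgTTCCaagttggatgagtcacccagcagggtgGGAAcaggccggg
S100a4, chr3:90603520-90603769, + strand: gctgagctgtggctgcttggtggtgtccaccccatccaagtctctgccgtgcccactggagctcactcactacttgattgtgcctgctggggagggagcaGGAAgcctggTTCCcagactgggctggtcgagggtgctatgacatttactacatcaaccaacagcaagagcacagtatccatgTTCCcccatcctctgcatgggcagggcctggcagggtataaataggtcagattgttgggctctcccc
S100a6, chr3:90612644-90612881, + strand: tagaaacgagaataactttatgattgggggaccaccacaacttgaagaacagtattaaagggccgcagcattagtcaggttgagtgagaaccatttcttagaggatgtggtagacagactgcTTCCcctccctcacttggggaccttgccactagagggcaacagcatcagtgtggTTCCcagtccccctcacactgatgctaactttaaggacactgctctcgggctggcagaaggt
The Lgals3 stretch held 4 GGAA cores, the Anxa2 and S100a4 stretches 3 each, the S100a6 stretch 2 and the Lgals7 stretch 0. Over the full 300-base windows, GGAA occurred in 8 of the 8 windows that were matched to these genes (Lgals3, Lgals7, Anxa1, Anxa2, S100a4, S100a6, S100a11 and Vim), and in 96% of all 32851 windows, whose median was 3 matches. The longer CGGAAG (or CTTCCG) occurred in 1 of 8, Lgals3, and in 16.9% of all windows. AGGAAGT (or ACTTCCT) occurred in 1 of 8, S100a4, outside its printed stretch, and in 9.35% of all windows, and CCGGAAGT (or ACTTCCGG) in 0 of 8 and in 3.89%. All of these contain the GGAA core, and CCGGAAGT contains CGGAAG. The matches are descriptions of letters in the windows and do not show binding.

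Before the single genes, the labels were set against the data. Ets1 was at 223 to 270.0 scaled FPKM in cKO TFH libraries and 170.0 to 214 in WT TFH libraries, and at 379 to 413 in cKO non-TFH libraries and 401 to 410.1 in WT non-TFH libraries. Ets1 was thus not lower in cKO TFH libraries, and the non-TFH groups overlapped. Since a whole-gene value also counts exons outside a deletion, it does not check the genotype labels. The summed level of 5 TFH genes with a value in every library was 1010 to 1163 in cKO TFH and 735 to 965 in WT TFH libraries, against 25.5 to 35.3 in cKO non-TFH and 26.2 to 38.0 in WT non-TFH libraries. The 7 T cell genes summed to at least 2304 in every library. The 4 Y-linked genes were at 0 in the cKO TFH libraries and summed to 7.26 to 115 in WT TFH, 107 to 152 in cKO non-TFH and 161 to 172 in the 2 WT non-TFH libraries with a value, so the sex of the mice cannot be told apart from the genotype in TFH cells or from the cell type in cKO mice. All WT TFH libraries also had a lower sum than the WT non-TFH libraries with a value, which limits the comparison of cell types in WT mice in the same way. Most X and Y chromosome genes have no value in WT non-TFH replicate 1, and none of the 10 genes lies on those chromosomes.

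Other cell types could carry these transcripts, and in sorted bulk samples fewer cells of a type and less RNA per cell cannot be told apart. The 14 macrophage and monocyte genes with a value in every library summed to 366 to 431 scaled FPKM in cKO TFH and 1557 to 2569 in WT TFH libraries, and to 161 to 182 in cKO non-TFH and 165 to 172 in WT non-TFH libraries. Of the 16 such genes tested, 14 passed as lower and 2 as higher in cKO than in WT TFH cells (limma, adjusted p under 0.05). Of all tested features, 31% passed there. In non-TFH cells 7 passed as higher, 1 passed as lower and 8 did not pass, where 20.4% of all tested features passed. The 8 neutrophil genes summed to 2.69 to 12.3 in cKO TFH and 0.0914 to 17.9 in WT TFH libraries, and to 46.1 to 63.1 in cKO non-TFH and 17.5 to 145 in WT non-TFH libraries, where 145 was replicate 3. The 6 regulatory T cell genes summed to 255 to 298 in cKO TFH and 470 to 591 in WT TFH libraries, and to 125 to 165 in cKO non-TFH and 71.1 to 91.4 in WT non-TFH libraries. Dendritic cell genes summed to 6.41 to 14.5 in cKO TFH and 24.2 to 35.8 in WT TFH libraries. Their sums were 2.66 to 3.83 in cKO non-TFH and 0.757 to 2.24 in WT non-TFH libraries. B cell genes summed to 36.1 to 41.4 in cKO TFH and 62.5 to 71.1 in WT TFH libraries, and to at most 2.65 in any non-TFH library. Keratinocyte genes summed to at most 5.70 in any library. The part of these cells in the differences below was not tested.

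Lgals1 encodes galectin-1, which is secreted and binds glycoproteins of T cells such as CD45 and CD43. Lgals1 in TFH cells stood at 706, 1031.1 and 1220.3 scaled FPKM in cKO libraries, against 286, 257 and 268 in WT libraries. In non-TFH cells it was at 532, 557 and 500.4 in cKO libraries, against 44.8, 46.3 and 55.8 in WT libraries. All 4 groups were separate, and cKO non-TFH cells stood above WT TFH cells. The cKO mean was 3.64 times the WT mean in TFH cells, with a log2 difference of 1.83 ± 0.16 (SE), and 10.8 times the WT mean in non-TFH cells, with 3.42 ± 0.16. All log2 differences are of log2(scaled FPKM + 1), which understates them for genes at low levels. Lgals1 was the 64th most abundant feature by mean in cKO TFH cells and the 306th in WT TFH cells. Its spread was uneven, with an SD of 26.4% of the mean in cKO TFH libraries and 5.42% in WT TFH libraries.

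Lgals3 encodes galectin-3, a galectin with a long tail that lets it form lattices with branched sugars on the cell surface, and it is also abundant in macrophages. In TFH cells it was at 93.4, 50.9 and 51.2 scaled FPKM in cKO libraries, against 26.4, 40.8 and 28.5 in WT libraries. Its non-TFH levels were 168, 152 and 115 in cKO libraries, against 1.60, 1.60 and 1.92 in WT libraries. Lgals3 was the only one of the 10 genes to have its highest mean in cKO non-TFH cells. The cKO mean was 85.1 times the WT mean in non-TFH cells (log2 difference 5.74 ± 0.24) and 2.04 times in TFH cells (0.97 ± 0.24). The order of the cell types also turned between genotypes: TFH minus non-TFH was -1.18 ± 0.24 in cKO cells and 3.58 ± 0.24 in WT cells. The highest Lgals3 library of the cKO TFH group, replicate 1, also had the highest macrophage sum of that group (431), and the same held for replicate 2 of the WT TFH group (2569). In non-TFH cells the macrophage sums of cKO and WT libraries overlapped, but most of each sum was Ctss, a lysosomal protease gene, at 113 to 125 in cKO and 141 to 147 in WT non-TFH libraries. The other 13 genes summed to 42.2 to 56.6 in cKO non-TFH libraries, against 19.1 to 31.3 in WT non-TFH libraries, without overlap, as for Lgals3. Of the 16 macrophage genes tested, 14 did not overlap between the non-TFH groups, counting both directions, against 52.1% of all tested features. Ctss, which was lower in cKO libraries, is among the 14. In the fit 7 of the 16 passed as higher, 1 passed as lower and 8 did not pass, where 20.4% of all tested features passed. Csf1r, a defining macrophage gene, was at 6.91, 5.93 and 4.91 scaled FPKM in cKO non-TFH libraries, against 1.70, 1.99 and 3.77 in WT non-TFH libraries. Lyz2, lysozyme of macrophages and neutrophils, had no value in 1 WT TFH library and stood outside these sums. It was at 756, 469 and 597.6 scaled FPKM in cKO TFH libraries, against 277 and 289 in the WT TFH libraries with a value. Lyz2 was thus higher in cKO TFH libraries, unlike the sum. Most macrophage genes went the other way in TFH cells, where 14 of the 16 tested passed as lower and 2 as higher. The 13 summed genes other than Ctss were at 265 to 318 in cKO TFH libraries, against 1322 to 2293 in WT TFH libraries. In non-TFH cells Lyz2 averaged 95.7 ± 13.8 in cKO and 36.6 ± 17.3 in WT libraries (SD, n = 3 each). The part of macrophages in the Lgals3 differences was not tested.

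Lgals7 encodes galectin-7, known from keratinocytes of stratified epithelia. In cKO TFH libraries it was at 45.7, 46.8 and 36.8 scaled FPKM, against 0.152, 0.630 and 1.88 in WT TFH libraries. In cKO non-TFH libraries it was at 9.90, 12.98 and 9.55, against 0.168, 0.171 and 0 in WT non-TFH libraries. Every cKO library was above every WT library of either cell type, and both WT groups overlapped. The log2 difference in TFH cells was 4.64 ± 0.28, and it was 5.001 without WT TFH replicate 3. No ratio of means is given in either cell type, because WT levels were near 0 and 1 WT non-TFH library was listed at 0. The deposited lower confidence bound was at least 32.2 scaled FPKM in cKO TFH and 6.85 in cKO non-TFH libraries, while it was 0 in all WT libraries but TFH replicate 3, where it was 0.639. The 7 keratinocyte genes summed to 3.83 to 5.70 in cKO TFH and 1.32 to 2.09 in WT TFH libraries, without overlap. In non-TFH cells they summed to 1.44 to 3.34 in cKO and 0.630 to 1.695 in WT libraries, with overlap. Of these genes, Krt5 was at 0 in every library and Krt14 was at most 0.0222. Dsp, a desmosome gene, averaged 3.56 ± 0.92 in cKO TFH and 0.200 ± 0.295 in WT TFH libraries (SD, n = 3 each). The part of keratinocytes in the Lgals7 differences was not tested.

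The extent of the Lgals7 entry also differed by genotype. All 6 WT libraries listed the gene from base 28864386 to 28866284 of chromosome 7 (build mm10, + strand). In all 6 cKO libraries the entry began 536 to 583 bases further upstream, between bases 28863803 and 28863850. GENCODE M21 places the first base of the transcript Lgals7-203 at 28863853, that of Lgals7-201 at 28864229 and that of Lgals7-202 at 28864455. The printed Lgals7 stretch, chr7:28864136-28864228, lies inside this added part of the entry and between the starts of Lgals7-203 and Lgals7-201. Whether the longer entry follows from the higher level, at which more reads are there to be assembled, was not tested. The annotated antisense gene Gm10648 overlaps Lgals7, and the neighbouring Capn12 was at 0 in every library.

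Anxa2 encodes annexin A2, a membrane and actin binding protein that carries S100A10. Anxa2 in TFH cells stood at 876, 767 and 828 scaled FPKM in cKO libraries, against 165, 138 and 167 in WT libraries. Among non-TFH cells its levels were 107, 120 and 99.6 in cKO libraries, against 4.32, 5.33 and 6.07 in WT libraries. The 4 groups were separate, with cKO TFH highest and WT non-TFH lowest, and their means spanned 157-fold. The cKO mean was 5.25 times the WT mean in TFH cells (log2 difference 2.39 ± 0.12) and 20.7 times in non-TFH cells (4.14 ± 0.12). TFH minus non-TFH was 2.91 ± 0.12 in cKO cells and 4.67 ± 0.12 in WT cells.

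Anxa1 encodes annexin A1, which is induced by glucocorticoids and acts on formyl peptide receptors. It was at 2.18, 1.88 and 0.770 scaled FPKM in cKO TFH libraries, against 3.30, 3.27 and 2.78 in WT TFH libraries. In non-TFH cells it was at 3.36, 3.53 and 2.05 in cKO libraries, against 0.980, 0.882 and 3.34 in WT libraries. Anxa1 was low throughout, and only the TFH groups did not overlap, with cKO below WT (log2 difference -0.70 ± 0.33). The log2 difference in non-TFH cells was 0.63 ± 0.33, and it was 1.02 without WT non-TFH replicate 3. Fpr1, a formyl peptide receptor of myeloid cells, averaged 1.18 ± 0.62 in cKO TFH and 19.6 ± 2.66 in WT TFH libraries (SD, n = 3 each).

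S100a10 encodes the annexin A2 partner also called p11. S100a10 in TFH cells stood at 849, 1031.9 and 1007.5 scaled FPKM in cKO libraries, against 646, 609.9 and 723 in WT libraries. Its non-TFH levels were 237, 229 and 221 in cKO libraries, against 155, 161 and 161 in WT libraries. The genotype groups were separate in both cell types, and the differences were alike in size: 0.54 ± 0.09 in TFH and 0.52 ± 0.09 in non-TFH cells, on the log2 scale. S100a10 was high in every group, with a mean of 159 ± 3.29 even in WT non-TFH cells (SD, n = 3), where Anxa2 averaged 5.24 ± 0.88.

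Anxa2 and its partner therefore differed in range. The ratio of Anxa2 to S100a10, both in scaled FPKM, was 0.866 ± 0.150 in cKO TFH libraries and 0.238 ± 0.0155 in WT TFH libraries (SD, n = 3 each). In non-TFH cells it was 0.475 ± 0.0418 in cKO and 0.0329 ± 0.00493 in WT libraries. The 4 groups did not overlap in this ratio: cKO TFH libraries ran from 0.743 to 1.03, cKO non-TFH from 0.451 to 0.523, WT TFH from 0.227 to 0.256 and WT non-TFH from 0.0279 to 0.0377. The order of this ratio thus placed both cKO groups above both WT groups, unlike the order of either gene.

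**Figure D2:**
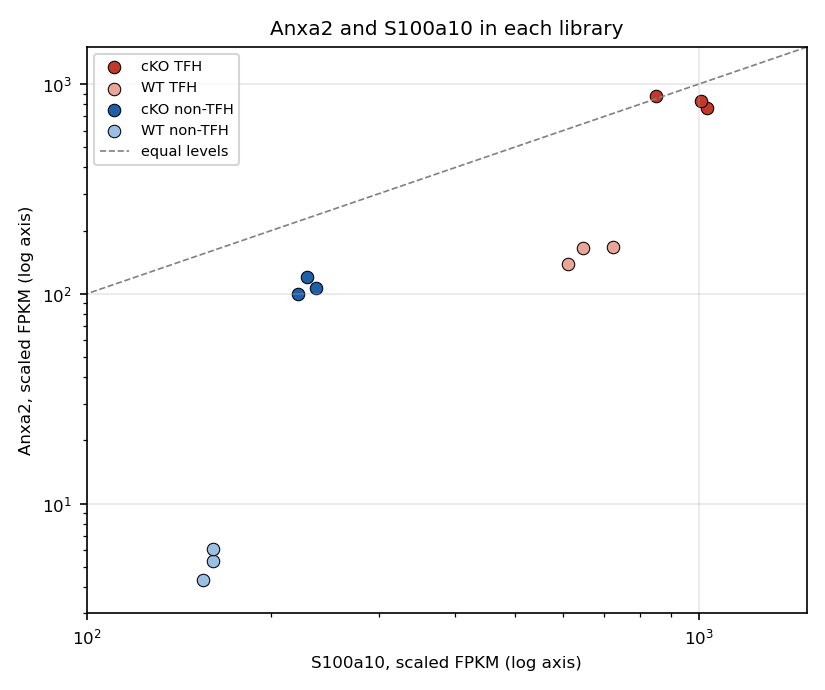
Scaled FPKM of Anxa2 on the y axis against S100a10 on the x axis, both logarithmic, with 1 point per library for cKO TFH, WT TFH, cKO non-TFH and WT non-TFH cells. The dashed line marks equal levels: 1 cKO TFH library, with a ratio of 1.03, lies above it and the WT non-TFH libraries, with ratios up to 0.0377, lie far below.

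S100a11 encodes a partner of annexin A1 and annexin A2 with roles in membrane repair and growth control. In TFH cells it was at 1628, 1804 and 1781 scaled FPKM in cKO libraries, against 1100, 1008 and 1105 in WT libraries. Among non-TFH cells its levels were 116, 97.8 and 104 in cKO libraries, against 58.1, 62.3 and 73.6 in WT libraries. It was the most abundant of the 10 genes in TFH cells, the 22nd most abundant feature by mean in cKO and the 41st in WT TFH cells. The groups were separate, and the genotype difference was 0.70 ± 0.10 in both TFH and non-TFH cells on the log2 scale. TFH minus non-TFH was also the same in both genotypes, at 4.03 ± 0.10. S100a11 and S100a10 are near each other on chromosome 3, between bases 93520488 and 93526287 and between 93555080 and 93564643 (GENCODE M21, GRCm38), both on the + strand. Their levels had a Pearson correlation of 0.994 over the 12 libraries, which are 4 groups that share cell type and genotype.

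S100a6 encodes calcyclin, which is known to rise in cells that re-enter the cell cycle. S100a6 in TFH cells stood at 441, 589.8 and 552 scaled FPKM in cKO libraries, against 198, 189 and 188 in WT libraries. In non-TFH cells it was at 44.1, 45.4 and 35.5 in cKO libraries, against 2.04, 3.49 and 7.67 in WT libraries. The groups were separate, and the cKO mean was 2.75 times the WT mean in TFH cells (log2 difference 1.45 ± 0.29) and 9.46 times in non-TFH cells (3.11 ± 0.29). S100a6 had the largest cell-type difference of the 10 genes in WT mice, with TFH minus non-TFH at 5.29 ± 0.29, against 3.63 ± 0.29 in cKO mice.

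S100a4 encodes a binding partner of non-muscle myosin heavy chain that is known in memory T cells. In TFH cells it was at 122, 152 and 132 scaled FPKM in cKO libraries, against 139, 127 and 137 in WT libraries. Its non-TFH levels were 47.3, 42.7 and 38.8 in cKO libraries, against 6.10, 8.53 and 16.1 in WT libraries. The TFH groups overlapped, with a log2 difference of 0.01 ± 0.24 whose sign turned in 3 of 21 alternative treatments of the data. The non-TFH groups were separate, with the cKO mean 4.196 times the WT mean (2.06 ± 0.24). S100a4 and S100a6 lie beside each other on chromosome 3 with S100a5 between them, from base 90603771 to 90606045 and from 90612882 to 90624181 (both + strand), yet they differed in TFH cells, where S100a6 was higher in cKO libraries. S100a5 was at most 1.45 scaled FPKM in any library. The annotated gene Gm42674 overlaps S100a4.

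WT non-TFH replicate 3 touched these values. It was the highest of its group for 8 of the 10 genes, all but Lgals7 and Vim, and stood furthest above the others, in relative terms, for S100a4 (16.1), S100a6 (7.67) and Anxa1 (3.34). It also held the highest neutrophil sum. The neutrophil genes S100a8 and S100a9, which lie in the same gene cluster on chromosome 3, were at 57.9 and 59.3 in it, against 9.35 and 5.19 in replicate 1 and 5.54 and 8.27 in replicate 2. Without that library the cKO minus WT difference in non-TFH cells was 2.41 for S100a4 and 3.52 for S100a6. The part of neutrophils in this was not tested.

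Vim encodes vimentin. Vim in TFH cells stood at 62.7, 85.4 and 58.6 scaled FPKM in cKO libraries, against 90.9, 92.0 and 98.7 in WT libraries. Among non-TFH cells its levels were 126, 139 and 122 in cKO libraries, against 165, 132 and 146 in WT libraries. Vim was the only one of the 10 genes whose mean was lower in cKO than in WT in both cell types and, in both genotypes, higher in the non-TFH group. The TFH groups did not overlap (log2 difference -0.46 ± 0.13), and the non-TFH groups did (-0.19 ± 0.13). TFH minus non-TFH was -0.91 ± 0.13 in cKO cells and -0.65 ± 0.13 in WT cells.

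In cKO against WT TFH cells, 7 of the 10 genes were past the threshold of the whole-table fit as higher and 1 as lower, where 15.9% of all tested features were higher and 15.1% lower (31% in all). The groups did not overlap for 9 of the 10, against 38% of all tested features. In non-TFH cells, 8 were past it as higher and 0 as lower, where 11.8% of all tested features were higher and 8.59% lower (20.4% in all), and 8 did not overlap, against 52.1% of all features. The median log2 difference over the 10 genes was 0.83 in TFH cells, where all tested features had a median of 0.04, and 2.59 in non-TFH cells, where all tested features had a median of 0.03. The single lower gene in TFH cells, Vim, was not past the threshold without cKO TFH replicate 1 or 3 or WT TFH replicate 3. Since the genes were chosen with these values known, nothing is read from these counts.

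**Figure D3:**
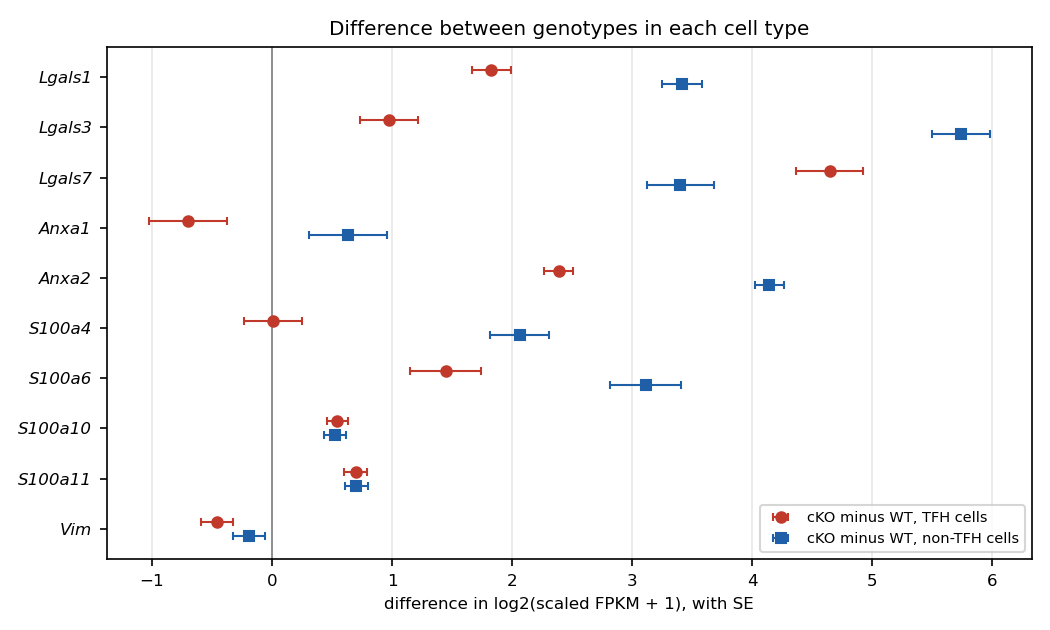
Difference cKO minus WT in log2(scaled FPKM + 1) on the x axis with its SE, for each of the 10 genes, in TFH cells (red circles) and non-TFH cells (blue squares). Lgals3 has the widest gap, 0.97 in TFH against 5.74 in non-TFH cells, while the S100a10 and S100a11 symbols stand nearly above each other.

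Between cell types, 7 of the 10 genes were past the threshold as higher in TFH cells and 2 as higher in non-TFH cells of cKO mice, where 33.6% of all tested features were higher and 33.6% lower (67.2% in all), and 9 did not overlap (73.8% of all features). In WT mice 7 were past it as higher and 1 as lower, where 35.4% of features were higher and 32.2% lower (67.6% in all), and 8 did not overlap (72% of all features). The genes higher in TFH cells of WT mice were Lgals1, Lgals3, Anxa2 and all 4 S100 genes, and Lgals7 and Anxa1 overlapped there. In cKO mice Lgals7 took the place of Lgals3 among the higher genes, and Lgals3 was lower. These counts too are descriptions from which nothing is read.

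**Figure D4:**
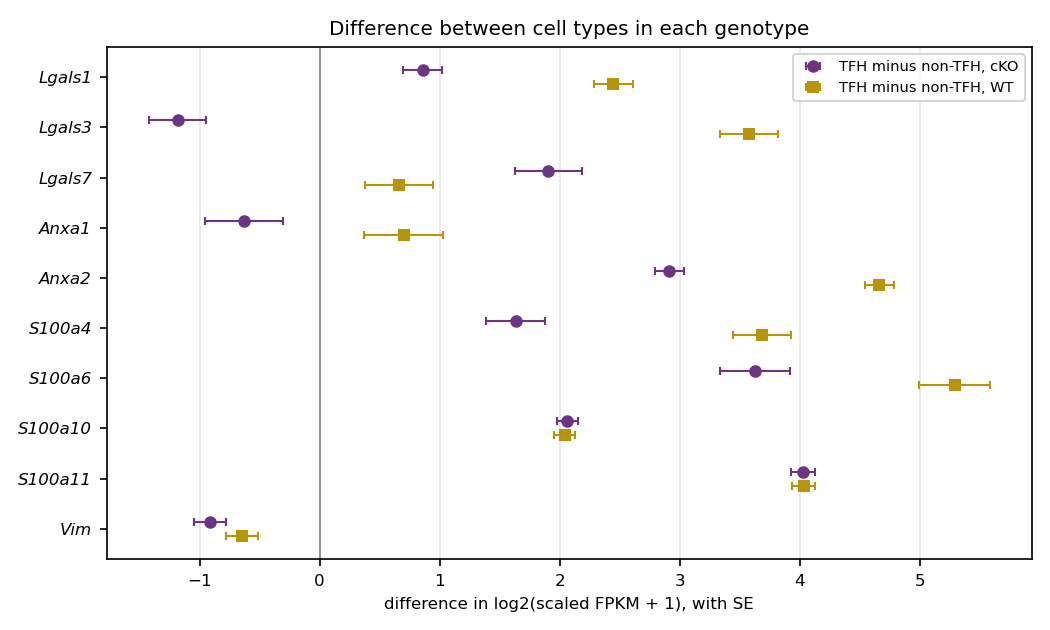
Difference TFH minus non-TFH in log2(scaled FPKM + 1) on the x axis with its SE, for each of the 10 genes, in cKO mice (purple circles) and WT mice (ochre squares). The symbols of S100a10 and S100a11 nearly coincide, and Lgals3 lies at -1.18 in cKO and 3.58 in WT mice.

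The difference between the genotype differences, TFH minus non-TFH, is likewise given as a description, since it comes from the values on which the genes were chosen. In the whole-table fit 5 of the 10 genes were past the threshold as lower, where 17.5% of all tested features were past it, 6.9% as higher and 10.6% as lower, and nothing is read from that count. It was -4.76 ± 0.34 for Lgals3, -2.05 ± 0.34 for S100a4, -1.75 ± 0.17 for Anxa2, -1.66 ± 0.42 for S100a6 and -1.59 ± 0.23 for Lgals1, each on the log2 scale with its SE. It was 0.02 ± 0.12 for S100a10 and -0.01 ± 0.14 for S100a11, values whose sign turned in 5 and in 6 of 20 alternative treatments of the data. For Lgals7 it was 1.24 ± 0.40, a value that depends on the constant added before taking logs because WT levels were near 0.

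Across the 12 libraries, each gene's log2 level was set against the mean standardised level of the other 9. Pearson's r was 0.963 for Anxa2, 0.938 for S100a6, 0.927 for S100a4, 0.912 for Lgals1, 0.796 for Lgals3, 0.779 for S100a10, 0.740 for S100a11 and 0.644 for Lgals7. It was 0.207 for Anxa1 and -0.809 for Vim. The non-member genes most like the mean profile of the 10 were Racgap1 (r = 0.985), Slc25a24 (0.977), Mien1 (0.973), Nme7 (0.972) and Tnfrsf9 (0.971). Racgap1, a regulator of cell division, averaged 55.5 ± 7.17 scaled FPKM in cKO TFH and 29.5 ± 4.67 in WT TFH cells, and 29.8 ± 2.13 in cKO non-TFH and 4.83 ± 1.45 in WT non-TFH cells (SD, n = 3 each). Tnfrsf9, the costimulatory receptor 4-1BB, averaged 98.2 ± 9.88 in cKO TFH and 79.7 ± 20.03 in WT TFH cells, and 42.1 ± 2.55 in cKO non-TFH and 3.53 ± 0.53 in WT non-TFH cells (SD, n = 3 each). These correlations are over libraries that share cell type and genotype, and are descriptions.

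Other genes of the same families changed in both directions. Of 42 further genes listed under galectins, annexins, S100 proteins and intermediate filaments, 40 had a feature and 21 passed the filter on low values. The lists include Lgals3bp and S100pbp, which encode binding proteins of a galectin and of an S100 protein and are not members of those families. In cKO against WT TFH cells 6 of the 21 rose, 5 fell and 10 did not pass the test (limma, Benjamini-Hochberg adjusted p under 0.05), with a median log2 change of 0.43, where 31% of all tested features passed and their median was 0.04. In non-TFH cells 3 rose, 1 fell and 17 did not pass, with a median of 0.30, where 20.4% of all tested features passed and their median was 0.03. The share of these genes that passed in non-TFH cells, 4 of 21, was thus about that of all features. By list, in TFH cells 2 of 5 genes listed under galectins rose and 2 fell, with Lgals3bp among those that fell. Of 6 annexin genes 2 rose and 2 fell. Of 6 genes listed under S100 proteins 1 rose, and of 4 intermediate filament genes 1 rose and 1 fell.

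Lgalsl, a galectin-related gene whose product lacks sugar binding, was at 18.5, 14.7 and 19.1 scaled FPKM in cKO TFH libraries, against 2.17, 1.83 and 2.59 in WT TFH libraries. It rose by 2.53 ± 0.17 on the log2 scale (limma adjusted p = 1.3e-06). Anxa3, a phospholipid-binding annexin, was at 22.1, 48.2 and 40.2 in cKO TFH libraries, against 9.27, 13.7 and 4.72 in WT TFH libraries, and rose by 1.92 ± 0.35 (limma adjusted p = 0.0016). Both sets of groups were separate. Lmna, the lamin A/C gene, fell to a mean of 0.564 ± 0.151 in cKO TFH libraries, against 3.94 ± 0.86 in WT TFH libraries (SD, n = 3 each; limma adjusted p = 4e-05). Anxa6, an annexin of membrane traffic, fell by 0.82 on the log2 scale (limma adjusted p = 0.00026), with means of 78.0 ± 14.9 in cKO TFH and 137 ± 8.55 in WT TFH libraries (SD, n = 3 each). Krt18, a keratin gene, rose by 0.96 ± 0.21 (limma adjusted p = 0.0041) at levels of at most 2.14, and did not pass the test when only the TFH groups were fitted. S100a13, whose product is known for export of growth factors without a signal peptide, was at 113, 251 and 259.5 in cKO TFH libraries, against 107, 81.1 and 80.3 in WT TFH libraries. Its rise of 1.13 ± 0.31 (limma adjusted p = 0.02) did not pass without cKO TFH replicate 2 or 3 or WT TFH replicate 2 or 3, where adjusted p was 0.0557 to 0.0713.

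In non-TFH cells, Anxa5, whose product binds the phosphatidylserine that dying cells expose, was at 12.96, 13.9 and 13.1 scaled FPKM in cKO libraries, against 35.1, 37.4 and 35.99 in WT libraries. It fell by 1.38 on the log2 scale (SE 0.10, limma adjusted p = 2.2e-06), opposite in sign to Anxa2. Anxa5 also fell in TFH cells (limma adjusted p = 0.00656). Lgals9, encoding galectin-9, a ligand of the inhibitory receptor TIM-3, was at 180.0, 173 and 163 in cKO libraries, against 116, 134 and 102 in WT libraries. It rose by 0.56 ± 0.10 (limma adjusted p = 0.0023). Lgals9 also rose in TFH cells (limma adjusted p = 0.00822), a call that was lost in 2 of 21 alternatives. Anxa4 rose by 0.73 ± 0.21 (limma adjusted p = 0.029) and S100a13 by 1.08 ± 0.31 (limma adjusted p = 0.033). Neither passed without cKO non-TFH replicate 1 or 2 or without any one of the WT non-TFH libraries, with adjusted p of 0.0651 to 0.126 for Anxa4 and 0.0527 to 0.115 for S100a13.

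**Figure D5:**
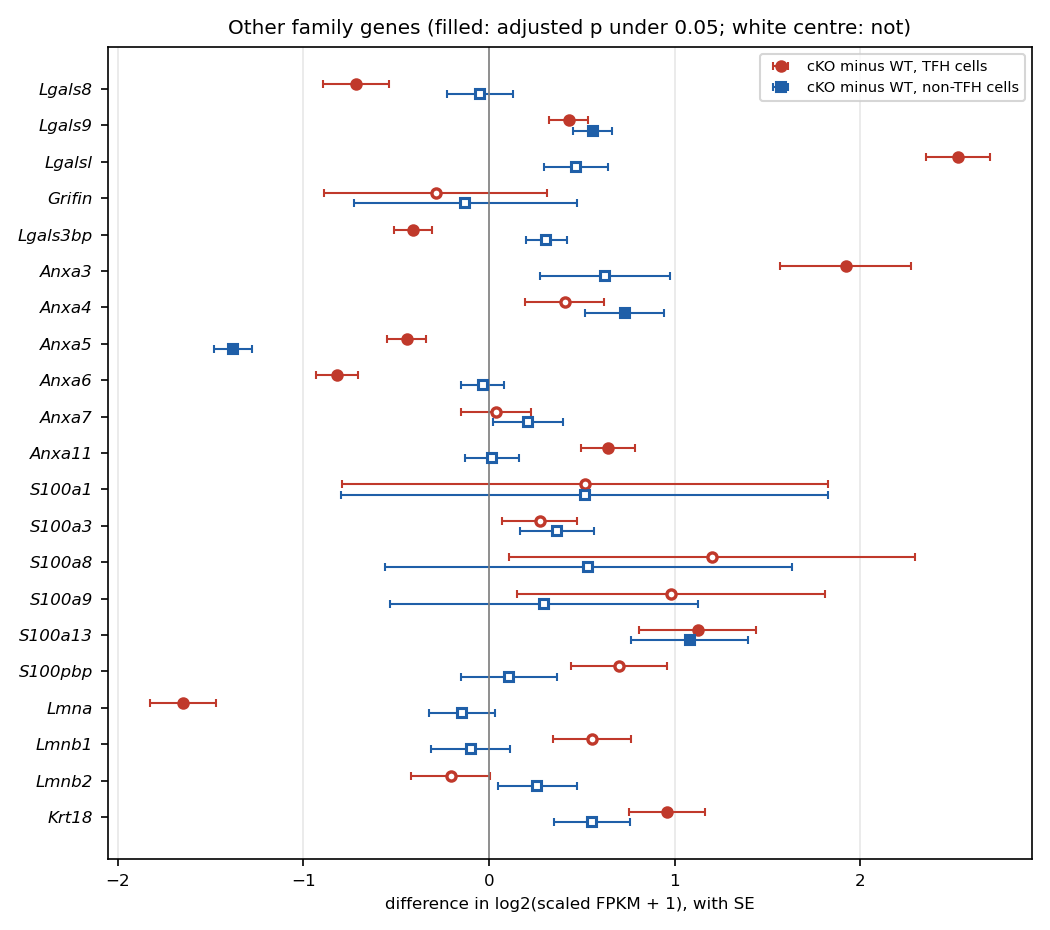
Difference cKO minus WT in log2(scaled FPKM + 1) on the x axis with its SE, for the 21 other family genes tested, in TFH cells (red circles) and non-TFH cells (blue squares), with filled symbols for adjusted p under 0.05. Symbols lie on both sides of 0, with Lgalsl at 2.53 and Lmna at -1.65 in TFH cells and Anxa5 at -1.38 in non-TFH cells.

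Of 22 genes for binding partners, receptors and glycan enzymes, 15 were tested. In cKO against WT TFH cells 3 rose and 5 fell, with a median log2 change of -0.28, while 4 rose and 4 fell in non-TFH cells, with a median of 0.14 (limma, where 31% of all tested features passed in TFH and 20.4% in non-TFH cells). Ahnak, a giant scaffold protein that binds the complex of annexin A2 and S100A10, was at 20.5, 25.4 and 24.1 scaled FPKM in cKO non-TFH libraries, against 6.04, 7.41 and 6.79 in WT non-TFH libraries. It rose by 1.65 ± 0.14 (limma adjusted p = 5.5e-06), while in TFH cells it averaged 4.44 ± 0.42 in cKO and 4.32 ± 0.38 in WT libraries (SD, n = 3 each). Itgb1, integrin beta-1, rose in both cell types, by 0.89 ± 0.19 in TFH (limma adjusted p = 0.004) and 1.12 ± 0.19 in non-TFH cells (limma adjusted p = 0.0012). Actn1, alpha-actinin, fell by 1.04 in TFH (limma adjusted p = 0.003) and by 1.06 in non-TFH cells (limma adjusted p = 0.0037), each with an SE of 0.21. Fpr1 fell by 3.28 in TFH cells (SE 0.23, limma adjusted p = 1.5e-06), beside the lower macrophage genes there. Havcr2, which encodes TIM-3, fell by 1.03 in TFH cells (SE 0.27, limma adjusted p = 0.012), a call that was lost when only the TFH groups were fitted. Cd44, an adhesion receptor of memory cells, fell by 0.74 in non-TFH cells (SE 0.15, limma adjusted p = 0.0049). It also fell in TFH cells (limma adjusted p = 0.0223), a call that was lost in 5 of 21 alternatives.

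Of 16 effector and memory T cell genes, 14 were tested. In TFH cells 2 rose and 5 fell, with a median log2 change of -0.18, while 5 rose and 5 fell in non-TFH cells, with a median of 0.30 (limma). Of the 14, 50% passed in TFH cells, where 31% of all tested features passed. In non-TFH cells 71.4% passed, where 20.4% of all tested features passed. The list was chosen with earlier results of these data known. Plp2, a membrane protein gene, rose by 1.27 ± 0.13 in TFH cells (limma adjusted p = 3.5e-05) and by 1.76 ± 0.13 in non-TFH cells (limma adjusted p = 2.6e-06). Il18r1, a receptor chain for interleukin-18, was at 61.7, 63.0 and 78.6 scaled FPKM in cKO non-TFH libraries, against 22.2, 20.8 and 21.0 in WT non-TFH libraries, and rose by 1.62 ± 0.39 (limma adjusted p = 0.012). Itga4, integrin alpha-4, fell by 1.59 in non-TFH cells (SE 0.17, limma adjusted p = 3.7e-05) and also fell in TFH cells (limma adjusted p = 0.00465). Il7r, the interleukin-7 receptor of naive and memory cells, fell by 1.59 in TFH (limma adjusted p = 0.00036) and by 1.58 in non-TFH cells (limma adjusted p = 0.00044), each with an SE of 0.23. In TFH cells Ccr7, a chemokine receptor of naive and central memory cells, fell by 1.86 (SE 0.10, limma adjusted p = 2.1e-07), and Cxcr3, a chemokine receptor of Th1 cells, fell by 1.70 (SE 0.13, limma adjusted p = 7.6e-06).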

How the data were processed

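Poly(A)-selected stranded libraries of sorted splenic CD4 T cells were sequenced, 12 in 4 groups of 3, per the labels' protocols. The deposited values are FPKM per gene with confidence bounds, computed by the authors for each library. Tools named in the submitters' processing notes are Bowtie, Bowtie2, Cuffdiff, Cufflinks, cutadapt, FastQC, TopHat and TopHat2, with the build mm10. No source used here gives their versions or settings. Counts were not used, since the files give FPKM alone. A depth of 11.7 to 13.9 M fragments in TFH and 13.4 to 15.4 M in non-TFH libraries was estimated from FPKM and its bounds at unnamed loci over 1500 bases, and no counting interval was drawn from it.

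Symbols with a separate entry in 2 or more libraries of each group were kept (22502), and names in the form of dates were then dropped from the features. Other symbols sharing an entry were summed, and listed genes that could not be separated from a protein-coding neighbour were left out. A missing value stayed missing. FPKM was scaled by median ratios over the 7171 features that reached 1 FPKM in all libraries (factors 0.857 to 1.14). The 11115 features that reached 1 FPKM in 3 or more libraries were fitted as log2(scaled FPKM + 1) with limma 3.58.1 in R 4.3.3, with a mean per group over all 12 libraries, a variance trend and robust moderation. P-values were adjusted by Benjamini-Hochberg over all tested features, at 0.05. The fit was tested on simulated data. Other steps used numpy 2.4.6, pandas 2.3.3 and matplotlib 3.10.9 under Python 3.11.15.

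The 10 genes, the gene lists and the comparisons were chosen with earlier results of these data known. Named in the text are all 10 genes, the 6 other family genes and the 4 genes of the partner and of the effector list with the largest called change in each comparison of cKO with WT, and the 5 genes most correlated with the mean profile. Genes named as markers or neighbours beside a result were named for that role. Marker lists covered T cells, TFH cells, macrophages, neutrophils, dendritic cells, B cells, keratinocytes, regulatory T cells, stromal and endothelial cells and Y-linked genes. The stromal and endothelial list summed to 39.8 to 44.6 scaled FPKM in cKO TFH, 36.5 to 41.1 in WT TFH, 0.576 to 44.3 in cKO non-TFH and 0.130 to 99.6 in WT non-TFH libraries, nearly all of it Pecam1. Alternatives covered the added constant, the filter, the scaling, the samples fitted, array weights, the variance model, a replicate block and leaving out each library.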

Additional observations from a re-analysis of the deposited data

Results flagged for a closer look

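Given here are 12 family, partner and effector genes outside the 10 whose cKO minus WT difference was not the same in TFH as in non-TFH cells. They are not all such genes of the lists used, since marker genes and some effector genes that also passed are left out. Passing is by the term for the difference in the whole-table fit, which 17.5% of all tested features passed. Of those tested, 5 of 21 other family genes, 3 of 15 partner genes and 6 of 14 effector and memory genes passed. The partner and effector genes given were taken only from those named for a large genotype change in these same data, so nothing is read from their number. Each value is the TFH difference minus the non-TFH difference on the log2 scale.

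Among other family genes, Lgalsl had 2.06 (limma adjusted p = 0.00016), with its rise in TFH cells. Anxa5 had 0.933 (limma adjusted p = 0.001), with the larger fall in non-TFH cells. Lmna had -1.503 (limma adjusted p = 0.0016), Anxa6 -0.783 (limma adjusted p = 0.0056) and Lgals3bp, which encodes a secreted ligand of galectin-3, -0.719 (limma adjusted p = 0.0077). Lgals3bp had no value in WT non-TFH replicate 1, so its value rests on 2 libraries of that group.

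Among partner genes, Fpr1 had -3.303 (limma adjusted p = 4.5e-05), Ahnak -1.618 (limma adjusted p = 2e-04) and Havcr2 -1.499 (limma adjusted p = 0.017). Among effector and memory genes, Il18r1 had -2.211 (limma adjusted p = 0.017), Cxcr3 -2.116 (limma adjusted p = 5.9e-05), Ccr7 -2.043 (limma adjusted p = 2.9e-06) and Itga4 0.81 (limma adjusted p = 0.037). The Itga4 call was lost in 12 of 20 alternatives, among them each fit without 1 library except WT TFH replicates 1 and 3, with adjusted p up to 0.0902. Macrophage genes differed in the same way as Fpr1 (13 of 16 lower and 1 higher in this term), and their part was not tested.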

How the results depend on the processing

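Of 3910 gene values recomputed under 21 alternatives, 3674 kept their direction and side of the threshold, 82 lost a call, 62 gained one and 92 turned sign. Of those 92, 88 were past the threshold under neither treatment, and 14 of these belong to the 10 genes: S100a4 in TFH cells (3), and the difference between the genotype differences of S100a10 (5) and S100a11 (6). The sign of values past it under at least 1 treatment turned for Lgals9 (-0.38 in cKO, -0.10 in WT) and Lgals3bp (-0.26 in cKO) between TFH and non-TFH cells with quantile normalization, and for Anxa6 (0.026 in WT) without scaling; the cause was not tested. Called features in TFH cells, 3441, were 2213 when only the groups compared were fitted and 2244 with array weights, and in non-TFH cells, 2268, were 3647 and 4176. With array weights 5 of the 10 genes and 7 other family genes were called in TFH cells, in place of 8 and 11. In non-TFH cells the other family genes called, 4, were 8 with a constant of 0.1 and 9 with array weights. Causes were not tested. Leaving out each library gave 2841 to 3238 called features in TFH cells with 7 to 8 of the 10 genes and 9 to 11 other family genes, and 1634 to 2467 in non-TFH cells with 8 to 9 and 2 to 5 (2 without cKO non-TFH replicate 1 or 2 or any of the WT non-TFH replicates). It gave 6862 to 7642 between cell types in cKO (9 to 10 and 12 to 15), 6921 to 7557 in WT (8 to 9 and 14 to 16) and 1477 to 1983 for the difference (5 to 6 and 5 to 7). Replicate numbers were not shown to pair libraries, since deviations of same-numbered libraries correlated between -0.032 and 0.059. The replicate block was a fixed effect of replicate number for cKO against WT in each cell type. Between cell types and for the difference it was a random block per genotype and replicate number. The consensus correlation of that random block was -0.024, so those fits could differ little from the main one. With the replicate block 3261 features were called in TFH and 2116 in non-TFH cells. The block gave 7417 and 7466 between cell types in cKO and WT mice and 1876 for the difference. With it 8 of the 10 genes were called in TFH and 8 in non-TFH cells, and among the other named genes only S100a13 lost its call, in non-TFH cells. Depth was only estimated, so counts behind low levels such as Anxa1 or WT Lgals7 are unknown.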
